A study of Mus musculus with 6 samples.

Results

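ABC transporters, the membrane pumps named for their ATP-binding cassette, were measured in the non-tumour liver of 6 mice kept on 1 of 2 diets. Members were the array probes, controls left out, whose gene name begins with Abca, Abcb, Abcc, Abce, Abcf or Abcg followed by a digit; the 4 Abcd genes were left out. This gave 64 of 39429 probes, for 46 genes. A probe could be tested if, in at least 1 diet, it stood well above background in every mouse measured; 38 genes had such a probe and 8 did not. All mice were male C57BL/6, aged 5 weeks when feeding began, with random assignment of 3 to a control diet and 3 to a formula with moderately restricted carbohydrate. All 6, the controls included, carried the same liver cancer model: a transposon vector with HrasG12V, a hairpin against p53 and GFP4, delivered to the tail vein by hydrodynamic injection. The labels disagree on timing: the samples give 1 week of feeding before the injection and 5 weeks of diet, the series text 2 weeks and 4 weeks. They also disagree on the formula, because the series text adds multiple phytochemicals to it, which the sample labels do not name. The sample titles call both diets supplemented, without naming a supplement. There were no mice without the vector, and what was measured is RNA of the tissue around the tumours.

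ABC proteins use ATP to move lipids, bile salts, conjugates, metals and drugs across membranes. In hepatocytes they sit on opposite faces of the cell: canalicular pumps secrete bile salts, phospholipid, sterols and conjugates into bile, while basolateral pumps return conjugates to blood or pass cholesterol to lipoproteins. Macrophages rely on ABC proteins for sterol efflux, mitochondria hold members that serve heme metabolism, and the Abce and Abcf proteins are soluble and act in translation.

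A level below is the log2 signal of a probe relative to the 75th percentile of its array, so a value of 0 lies at that percentile. A difference is the mean of the 3 mice on the restricted diet minus the mean of the 3 control mice, with its standard error (SE) from limma's fit over all 19616 features, and p is adjusted over all of them by Benjamini-Hochberg. A gene was called at an adjusted p under 0.05. The median difference of all features was 0.12, so that values are also given relative to this shift where a list is summarised. Mice are numbered 1 to 3 within a diet. Slide 1 carried 4 arrays, the 3 controls and restricted mouse 1, and slide 2 carried the 2 arrays of restricted mice 2 and 3, so the fit with the slide as a block compares restricted mouse 1 with the controls. The 75th percentile ran from 287.4 to 573.6 units of signal and 23527 to 25816 probes per array were well above background. The labels name 6 separate mice, and this number of arrays limits the precision.

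Of the 38 tested ABC genes, 13 were called higher on the restricted diet and 7 lower, and 18 did not pass. Over all features 14.6% were called higher, 12.8% lower and 27.5% in either direction. The median difference of the ABC genes was 0.43, or 0.31 above the shift of all features, and 24 of 38 differences were above 0. In 18 of the 38 every restricted mouse lay above every control mouse, and in 8 below. Over all features this complete separation was found for 44.8%, with the restricted mice above in 26.1% and below in 18.8%. Set against this background, the share of ABC genes called higher lay above it and the share called lower nearer to it, and neither gap was tested. Among the 7 genes called lower, Abcg3 passed the background filter through the control mice alone, which favours a lower value on the restricted diet. Without Abcg3, 6 were lower. Fitted differences of at least 2-fold were called for 6 genes higher and, without Abcg3, for 5 lower. The share of all features at this size was not counted, so these counts have no background beside them. Without control mouse 2 there were 8 called higher, with 8.08% of all features. With the slide as a block 2 members were called higher (Abcg8 and Abcb6) and 5 lower (Abcc1, Abcg1, Abca7, Abca9 and Abcc5), and on slide 1 alone 1 was called higher and 4 lower. Over all features the slide block called 5.71% higher and 9.65% lower, and slide 1 alone 4.14% and 7.87%, so in both of these fits the share of ABC genes called higher was not above the background.

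**Figure D1:**
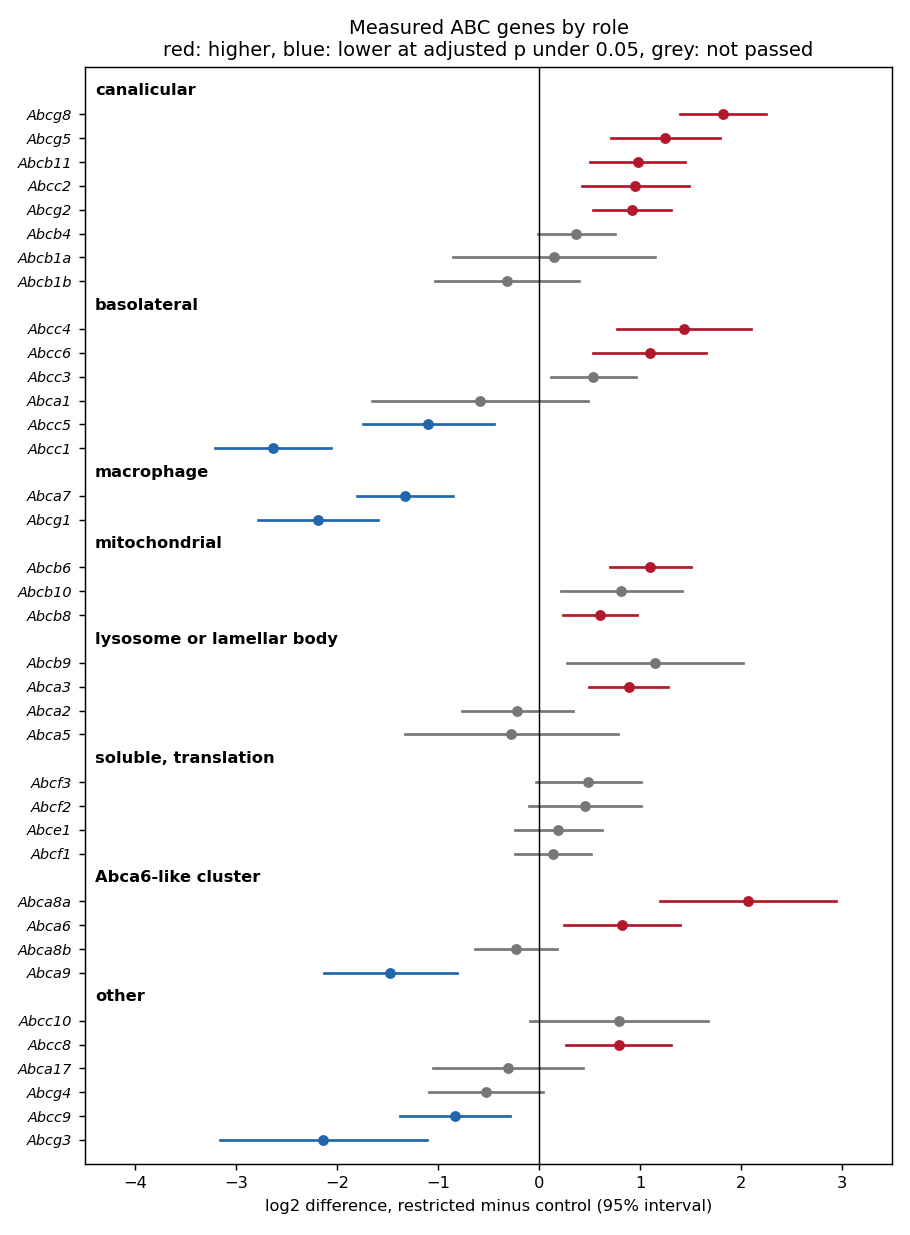
Fitted log2 difference (restricted minus control diet, horizontal axis) of tested ABC genes, grouped by role, with the 95% interval as a bar and 3 mice per diet. Abca1, which is both basolateral and macrophage, is drawn once, and Abcg3, not above background on the restricted diet, is drawn at its fitted value; 5 of 8 canalicular genes are red (higher), while Abca7, Abcg1, Abcc1 and Abcc5 are blue (lower).

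By subfamily, the Abcb genes had 3 of 9 tested members higher and 0 lower, with 8 of 9 differences above 0 and a median of 0.60. The Abcc genes split most evenly: 4 of 9 were higher and 3 lower, with a median of 0.79 and a span from -2.64 for Abcc1 to 1.44 for Abcc4. Of 10 tested Abca genes 3 were higher and 2 lower, with a median of -0.25. Of 6 Abcg genes 3 were higher and 2 lower, Abcg3 being 1 of the latter, with a median of 0.20. Neither the single Abce gene nor any of the 3 Abcf genes passed. The members of a subfamily share ancestry and domain order, and in the Abca, Abcc and Abcg subfamilies called members lay on both sides of 0.

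The canalicular transporters were the role with the most genes called higher. Of 8 tested, 5 were higher, 0 lower and 3 not passed, with a median difference of 0.94, or 0.82 above the shift. Promoters of 4 of these 5 genes are shown first, because genes called together can be read side by side at their starts. Each window runs from 250 bases before a start to 50 after it and comes from RefSeq in build GRCm38.p6. Capitals mark AGGTCA, the half-site that nuclear receptors of the bile acid, sterol and fatty acid sensing families recognise, and TGACNNNGC, the core of the antioxidant response element; both were searched on both strands. Abcg5 and Abcg8 lie head to head with starts 110 bases apart on chromosome 17, so that 1 interval serves both genes and is printed on the strand of Abcg8; Abcb6, the called mitochondrial gene with a half-site, is given beside them.

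Abcg8, chr17:84682871-84683170, plus strand: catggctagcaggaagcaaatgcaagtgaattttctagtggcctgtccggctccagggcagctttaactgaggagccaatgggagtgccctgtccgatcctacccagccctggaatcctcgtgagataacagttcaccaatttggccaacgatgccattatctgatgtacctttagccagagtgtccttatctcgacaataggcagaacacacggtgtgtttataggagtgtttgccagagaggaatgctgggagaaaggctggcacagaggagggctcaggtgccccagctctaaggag
Abcb11, chr2:69342567-69342866, minus strand: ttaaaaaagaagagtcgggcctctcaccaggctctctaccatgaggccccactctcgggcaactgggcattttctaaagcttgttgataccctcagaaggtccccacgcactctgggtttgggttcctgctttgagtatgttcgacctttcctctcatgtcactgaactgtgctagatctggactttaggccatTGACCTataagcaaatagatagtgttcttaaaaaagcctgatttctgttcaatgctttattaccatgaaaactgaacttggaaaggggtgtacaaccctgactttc
Abcc2, chr19:43782058-43782357, plus strand: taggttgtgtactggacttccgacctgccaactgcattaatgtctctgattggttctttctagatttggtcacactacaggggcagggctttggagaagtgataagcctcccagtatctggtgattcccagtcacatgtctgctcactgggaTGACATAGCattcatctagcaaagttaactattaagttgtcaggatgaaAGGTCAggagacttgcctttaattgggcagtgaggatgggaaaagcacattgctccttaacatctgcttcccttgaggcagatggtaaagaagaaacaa
Abcb6, chr1:75180343-75180642, minus strand: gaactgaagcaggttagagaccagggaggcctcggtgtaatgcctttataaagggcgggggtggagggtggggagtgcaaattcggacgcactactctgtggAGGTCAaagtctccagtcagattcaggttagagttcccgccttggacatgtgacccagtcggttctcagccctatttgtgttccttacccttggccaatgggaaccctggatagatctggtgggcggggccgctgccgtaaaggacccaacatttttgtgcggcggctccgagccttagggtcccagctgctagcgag

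In Abcb11 the half-site lies close before the start and reads TGACCT because it is on the opposite strand. Abcc2 holds both motifs, the antioxidant core first and the half-site nearer the start. The interval of Abcg5 and Abcg8 holds neither. The table held 43 windows of 37 member genes. AGGTCA occurred in 7 of the 43 (16.3%) and in 5340 of all 32851 promoters (16.3%), and TGACNNNGC in 7 of 43 (16.3%) against 12.4% of all promoters. Among windows of members called higher the half-site was found in 5 of 13, among those called lower in 0 of 5 and among the rest in 2 of 25. The 5 windows with a match belong to Abcb11, Abcb6, Abcc2 and, with 2 windows, Abcg2. The 13 windows come from 9 genes. Windows were lacking for Abcc6, Abca6, Abcb8 and Abcc8, called higher, and for Abcc1 and Abcg1, called lower, so the counts do not cover all called genes. A match of letters is a description of the window and not a site, and these counts were not tested.

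Abcb11 is the bile salt export pump, which drives bile flow. Its level was 4.73, 4.44 and 4.83 in control mice 1 to 3 and 5.77, 5.77 and 5.38 in restricted mice 1 to 3 (probe at chr2:69076365-69076424, mm9). Every restricted mouse lay above every control mouse. The difference was 0.98 ± 0.20 (SE, n = 3 per diet), a 1.97-fold higher signal, with an adjusted p of 0.0122 by limma. It was 0.65 (adjusted p = 0.0519 by limma) after quantile normalization, which ended the call, as did leaving out restricted mouse 2 (adjusted p = 0.0524 by limma).

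Abcb4 moves phosphatidylcholine into bile, where it shields the ducts from bile salts. Its level was 5.18, 5.40 and 5.26 in the controls and 5.71, 5.69 and 5.56 on the restricted diet. The ranges did not overlap, but the difference of 0.37 ± 0.16 did not pass (adjusted p = 0.134 by limma, 95% interval -0.01 to 0.75). With quantile normalization it was 0.013 (adjusted p = 0.956 by limma). Abcc2, which exports bilirubin and drug conjugates, stood at 2.90, 2.55 and 2.99 in the controls against 3.77, 3.44 and 4.07. All 3 restricted mice were above the controls, by 0.95 ± 0.23 (1.94-fold, adjusted p = 0.0207 by limma). The call of Abcc2 was lost with quantile normalization and without control mouse 1 or 2 or restricted mouse 1 or 3, at adjusted p from 0.0545 to 0.0762 by limma.

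Abcg2, a pump for sulfated conjugates and porphyrins, varied little within a diet. The controls had 3.02, 3.10 and 3.10 and the restricted mice 3.99, 3.85 and 4.13. The difference was 0.92 ± 0.16, a 1.89-fold higher signal without overlap (adjusted p = 0.00692 by limma).

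Abcg5 and Abcg8 work only as a pair, and together they export cholesterol and plant sterols into bile. Abcg5 had levels of 3.39, 3.70 and 3.77 in the controls and 4.71, 4.63 and 5.26 on the restricted diet, a difference of 1.25 ± 0.23 (2.38-fold, adjusted p = 0.0079 by limma). The Abcg8 probe was dimmer, with -3.0, -2.73 and -2.82 in the controls and -1.22, -1.03 and -0.84 on the restricted diet. Its difference of 1.82 ± 0.18 (3.54-fold, adjusted p = 0.00077 by limma) was the largest of the canalicular genes. Both partners of the pair were thus higher in all 3 restricted mice, without overlap. Abcg8 was called in all 18 alternatives run for it, the slide block included (1.64, adjusted p = 0.00992 by limma).

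The drug efflux pumps Abcb1a and Abcb1b lie next to Abcb4 on chromosome 5 and are duplicates of each other, so their signals may be shared in part. Abcb1a had -2.10, -1.96 and -2.78 in the controls and -2.92, -1.32 and -2.16 on the restricted diet, a difference of 0.15 ± 0.42 (adjusted p = 0.829 by limma). Abcb1b had -3.03, -2.98 and -3.21 against -4.06, -2.92 and -3.20, a difference of -0.32 ± 0.30 (adjusted p = 0.472 by limma). Both ranges overlapped, and in both genes restricted mouse 1 was the lowest of the 6. The sign of neither difference held in all alternatives.

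**Figure D2:**
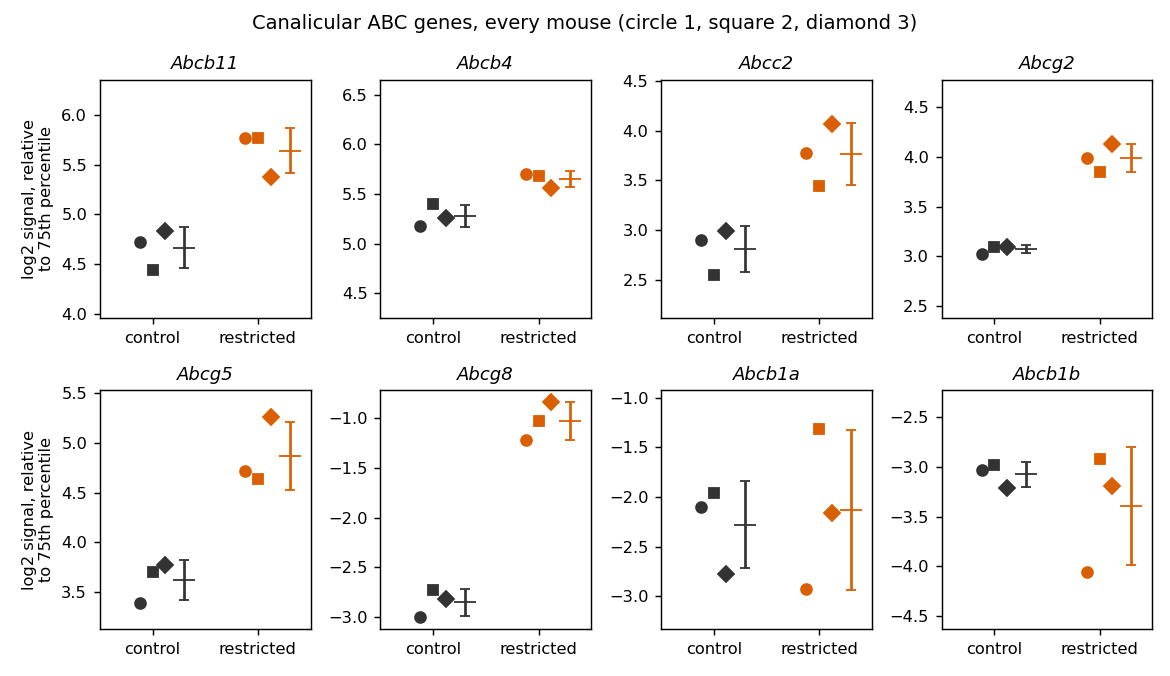
Levels of the 8 canalicular ABC genes in every mouse (log2 signal relative to the 75th percentile of the array), each panel with its own axis range, bars for the mean ± SD of 3 mice. In the panels of Abcb11, Abcc2, Abcg2, Abcg5 and Abcg8 every restricted mouse lies above every control mouse, and in those of Abcb1a and Abcb1b the diets overlap.

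With the slide as a block the differences of Abcb11, Abcc2, Abcg2 and Abcg5 were 1.11, 0.97, 0.92 and 1.10, close to the values over all mice, with adjusted p of 0.0544, 0.12, 0.0567 and 0.0815 by limma. Restricted mouse 1, on the slide of the controls, was itself above all 3 controls in each of these genes. Quantile normalization left 3 of the 8 canalicular genes called higher, with 14.2% of all features.

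The basolateral transporters did not move as 1 group: of 6 tested, 2 were higher, 2 lower and 2 not passed, with a median difference of -0.03. Abcc4, which exports bile acids and cyclic nucleotides to blood, had levels of -1.52, -1.21 and -1.75 in the controls and -0.47, -0.17 and 0.46 on the restricted diet. The difference was 1.44 ± 0.28 without overlap (2.71-fold, adjusted p = 0.0103 by limma). Abcc6, whose loss causes ectopic mineralisation and which acts in ATP release from hepatocytes, stood at 2.91, 2.98 and 3.56 against 4.10, 4.11 and 4.52. It was higher by 1.09 ± 0.24 (2.13-fold, adjusted p = 0.0152 by limma), and a second probe of the gene gave 0.84 (adjusted p = 0.0215 by limma). The call ended without control mouse 1 or 2 (adjusted p = 0.0559 and 0.0602 by limma). Abcc3, the basolateral exporter of glucuronides, had 5.12, 5.00 and 5.19 in the controls and 5.45, 5.62 and 5.85 on the restricted diet. Its ranges did not overlap, but the difference of 0.54 ± 0.18 did not pass (adjusted p = 0.0641 by limma, 95% interval 0.12 to 0.96). With median scaling it passed (adjusted p = 0.0276 by limma), while with quantile normalization it was 0.19 (adjusted p = 0.486 by limma) and under the slide block 0.34 (adjusted p = 0.427 by limma).

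Abcc1, a widely expressed exporter of glutathione conjugates and leukotriene C4, had the largest difference of all 38 members in either direction. Its levels were -1.09, -0.81 and -1.44 in the controls and -4.11, -3.55 and -3.59 on the restricted diet (probe at chr16:14474551-14474610, mm9). It was lower by 6.22-fold: the difference was -2.64 ± 0.24 (adjusted p = 0.000635 by limma), and all 3 restricted mice were far below the controls. The size depended on the background correction: with normexp it was -1.30, still called.

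Abcc5, an exporter of nucleotide analogues, was measured by 4 probes. Its brightest probe had -0.54, -0.84 and -0.09 in the controls and -1.95, -1.61 and -1.21 on the restricted diet, a difference of -1.10 ± 0.27 (2.14-fold lower, adjusted p = 0.0252 by limma). Of the other probes, 1 was above background on 2 of 3 restricted arrays and passed the filter through the controls. It gave -1.78 (adjusted p = 0.0298 by limma), a size that rests in part on signals at background. The remaining probes gave -1.02 and -0.63, in the same direction, with adjusted p of 0.0395 and 0.0857 by limma. The call was lost without control mouse 1 or 3, without restricted mouse 1 or 2, and on slide 1 alone, where adjusted p ran from 0.0505 to 0.0776 by limma.

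**Figure D3:**
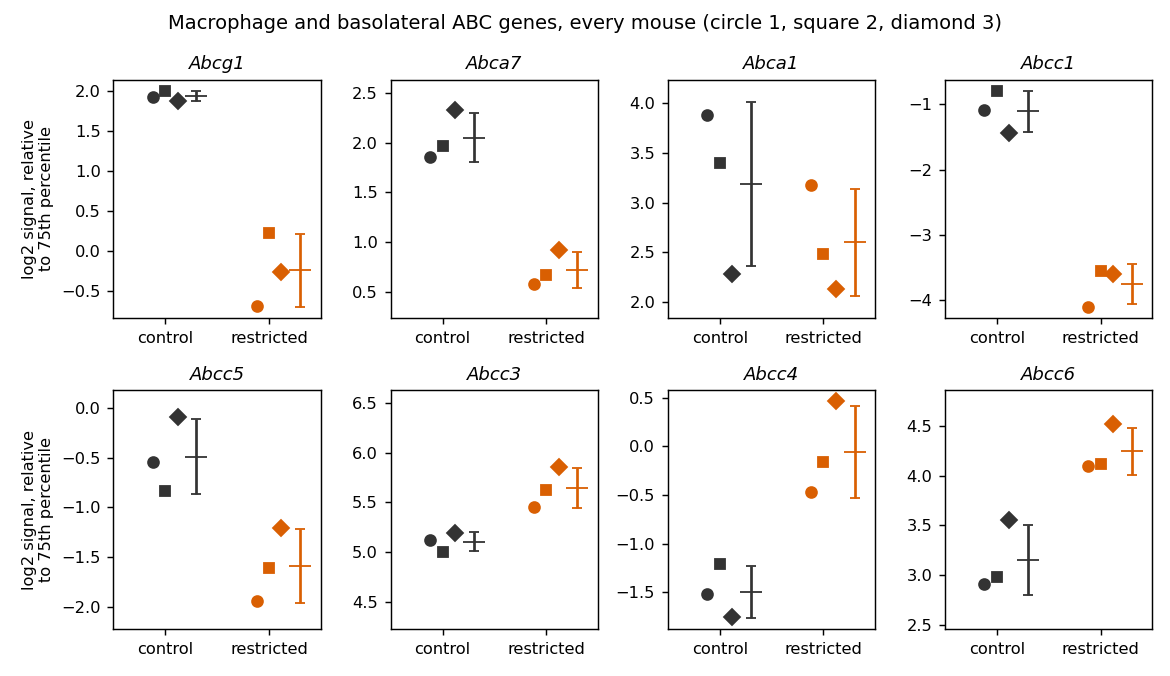
Levels of the macrophage and basolateral ABC genes in every mouse (log2 signal relative to the 75th percentile of the array), bars for the mean ± SD of 3 mice per diet. Abcg1, Abca7, Abcc1 and Abcc5 lie lower in every restricted mouse, Abcc3, Abcc4 and Abcc6 higher, and Abca1 overlaps.

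Of the 3 members listed for a macrophage role, 2 were lower, 0 higher and 1 did not pass, with a median difference of -1.33. Abcg1, which passes cholesterol from macrophages to HDL, had levels of 1.92, 2.01 and 1.88 in the controls and -0.70, 0.23 and -0.27 on the restricted diet. The controls lay within a narrow range and all restricted mice were below it, by a difference of -2.19 ± 0.25 (4.56-fold lower, adjusted p = 0.00131 by limma). Abca7, a phospholipid transporter linked to phagocytosis, had 1.85, 1.97 and 2.33 against 0.57, 0.66 and 0.92. It was lower by 2.51-fold without overlap (-1.33 ± 0.20, adjusted p = 0.00369 by limma). Abca1, which loads cholesterol onto apolipoprotein A-I in macrophages and across the basolateral face of hepatocytes, varied within each diet. It had 3.88, 3.40 and 2.28 in the controls and 3.18, 2.49 and 2.13 on the restricted diet, ranges that overlapped. Its difference of -0.59 ± 0.45 did not pass (adjusted p = 0.374 by limma), and the interval from -1.66 to 0.48 allows a change of either sign. With the slide as a block it was -0.01.

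Macrophage markers were also lower on the restricted diet. All 15 markers of macrophages and Kupffer cells, the resident macrophages of the liver, were called lower, with a median difference of -2.22. Their mean level was 2.28 to 2.58 in the control mice and -0.15 to 0.38 in the restricted mice, and the Kupffer cell genes Marco, Vsig4 and Clec4f had differences of -3.55, -2.78 and -2.24. None of the 3 was at 0: Marco, Vsig4 and Clec4f were above background on all 6 arrays. Cd163, another of the 15, was above background on 5 of 6 and passed the filter through the control mice alone, which favours a lower value. The part of these markers in the lower values of Abcg1, Abca7, Abcc1 and Abcc5 was not tested. In RNA of whole tissue, fewer cells of a type and less RNA per cell cannot be told apart.

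Markers of other cell types also differed. The shares to set them against are 14.6% of all features called higher and 12.8% lower. Of 8 neutrophil markers 6 were called lower and 1 higher, of 7 stellate cell and fibroblast markers 3 were lower, of 5 tested lymphocyte markers 2 were lower, and of 6 endothelial markers 2 were higher, Clec4g (1.86) and Lyve1 (1.97). Of 5 tested bile duct markers Spp1 was lower (-2.33) and above background on all 6 arrays. Epcam and Krt7, also called lower, were above background on 3 of 6 arrays, so that the mean level of the list, -2.01 to -1.67 in the controls and -4.07 to -2.92 on the restricted diet, rests in part on signals at background. The same holds for the neutrophil markers Ltf, above background on 3 of 6 arrays, and Mpo and Ngp, each on 4 of 6. The lymphocyte marker Cd3g was above background on 5 of 6 arrays. Epcam, Krt7, Ltf, Mpo, Ngp and Cd3g passed the background filter through the control mice alone, which favours a lower value on the restricted diet. The calls and sizes of these genes thus rest in part on signals at background, and the counts above include them. None of 10 hepatocyte markers passed limma's test, at adjusted p from 0.102 to 0.559, and 1 of them, Cps1, had an unadjusted p under 0.05. Of these, 7 were saturated on all 6 arrays and give no difference, while Cps1, Tat and Apob had differences of 1.07, 0.44 and 0.17. Hepatocyte genes were bright on every array, as the label of liver tissue states. The part of the hepatocyte share in the canalicular values was not tested.

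**Figure D4:**
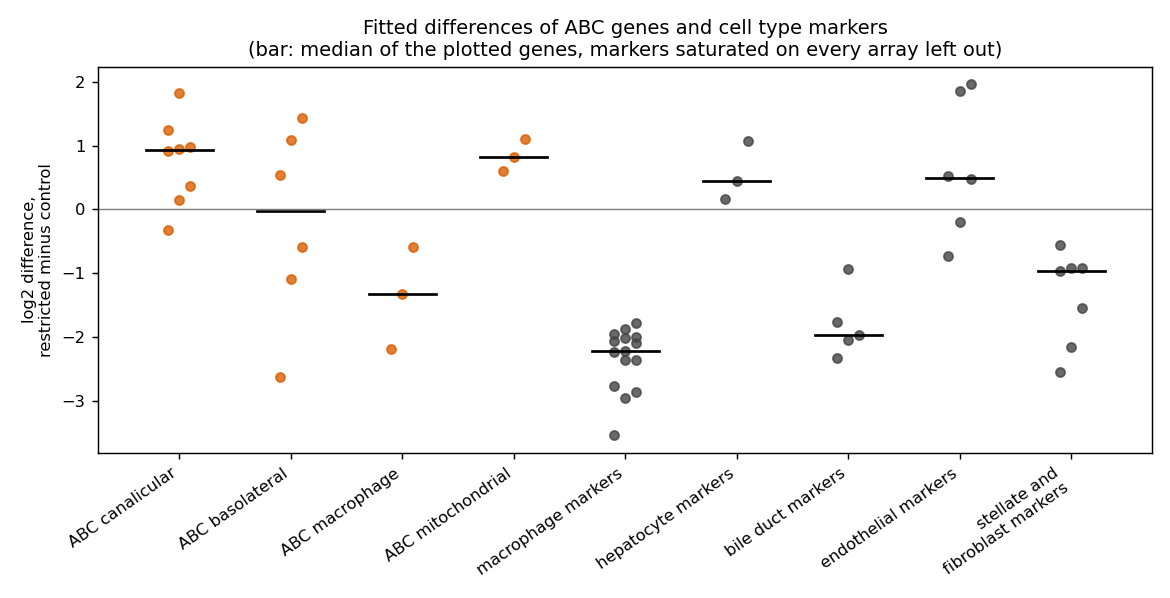
Fitted log2 differences (vertical axis, restricted minus control) of the ABC genes by role, in orange, and of cell type markers, in grey, 1 point per gene and a bar at the median of the points, with markers saturated on all 6 arrays left out. The 15 macrophage markers all lie at -1.78 or lower, and the canalicular genes centre on 0.94. Of the macrophage and basolateral genes, Abcg1, Abca7, Abca1, Abcc1 and Abcc5 lie below 0. The medians of the bile duct markers (-1.96) and of the stellate and fibroblast markers (-0.97) lie below 0 too.

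The mitochondrial members Abcb6, Abcb8 and Abcb10 all had differences above 0, and the first 2 of them passed. Abcb6, placed at mitochondria and other membranes and linked to porphyrin transport, had levels of 1.73, 1.75 and 1.95 in the controls and 2.81, 2.85 and 3.08 on the restricted diet. It was higher by 1.10 ± 0.17 without overlap (2.15-fold, adjusted p = 0.0042 by limma), and with the slide as a block it was 1.00 (adjusted p = 0.0483 by limma), but on slide 1 alone the call was lost (adjusted p = 0.0957 by limma). Abcb8, a part of the mitochondrial potassium channel complex, had 1.91, 1.88 and 2.06 against 2.55, 2.51 and 2.59. The difference was 0.60 ± 0.16 (1.52-fold, adjusted p = 0.0288 by limma). Its second probe gave 0.68 but did not pass (adjusted p = 0.246 by limma), and the call was also lost without any 1 mouse other than control 3, at adjusted p from 0.0706 to 0.102 by limma. Abcb10, needed for heme synthesis in red cell precursors, had 0.45, 0.74 and 1.34 in the controls and 1.54, 1.62 and 1.82 on the restricted diet; the ranges did not overlap, but the difference of 0.82 ± 0.26 missed the threshold (adjusted p = 0.0532 by limma).

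Of the 4 members of lysosomes or lamellar bodies 1 was higher. Abca3, the phospholipid transporter of surfactant-storing lamellar bodies, had 2.59, 2.75 and 2.62 in the controls and 3.51, 3.70 and 3.41 on the restricted diet. It was higher by 0.89 ± 0.17 without overlap (1.85-fold, adjusted p = 0.00872 by limma), and its difference with the slide as a block was 0.86 (adjusted p = 0.075 by limma). Abcb9, a lysosomal peptide transporter, had a difference of 1.15 ± 0.37 with the restricted mice above the controls, but did not pass (adjusted p = 0.0577 by limma). Abca2 and Abca5 had -0.22 and -0.27, each with a second probe of the same sign, and did not pass. The soluble members, Abce1 for ribosome recycling and Abcf1 to Abcf3, had differences from 0.14 to 0.49, and 0 of 4 passed limma's test, at adjusted p from 0.146 to 0.556, or had an unadjusted p under 0.05. With array weights 2 of the 4 were called higher, with 26.8% of all features.

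Abca8b, Abca8a, Abca9, Abca6 and Abca5 follow each other on chromosome 11 in that order by their probes (chr11:109795589-110131022, mm9), as a tandem array of related lipid transporters. The 4 genes of the Abca6-like group in it did not move in 1 direction: 2 were higher, 1 lower and 1 not passed. Abca8a had levels of -2.60, -2.09 and -1.72 in the controls and -0.54, -0.32 and 0.65 on the restricted diet. It was higher by 2.07 ± 0.37 (4.19-fold, adjusted p = 0.00718 by limma), the largest positive difference of the 38 members.

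Abca9, its neighbour by probe position, had -1.74, -1.71 and -0.98 against -3.32, -2.80 and -2.72. It was lower by 2.77-fold without overlap (-1.47 ± 0.28, adjusted p = 0.009 by limma), and was called in all 18 alternatives, with a smaller size under normexp (-0.76, adjusted p = 0.0345 by limma). Abca6, next to Abca9, had 0.95, 0.34 and 0.51 in the controls and 1.73, 1.44 and 1.11 on the restricted diet, higher by 0.82 ± 0.24 (1.77-fold, adjusted p = 0.0442 by limma). That call was near the threshold and was lost without control mouse 2 or 3 or restricted mouse 1 or 2, at adjusted p from 0.0853 to 0.142 by limma. Abca8b, a close relative of Abca8a, had 2.19, 2.02 and 1.86 against 1.81, 1.68 and 1.90, overlapping ranges with a difference of -0.23 ± 0.17 (adjusted p = 0.369 by limma). Genes this similar can share signal, and how specific each probe is was not examined.

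**Figure D5:**
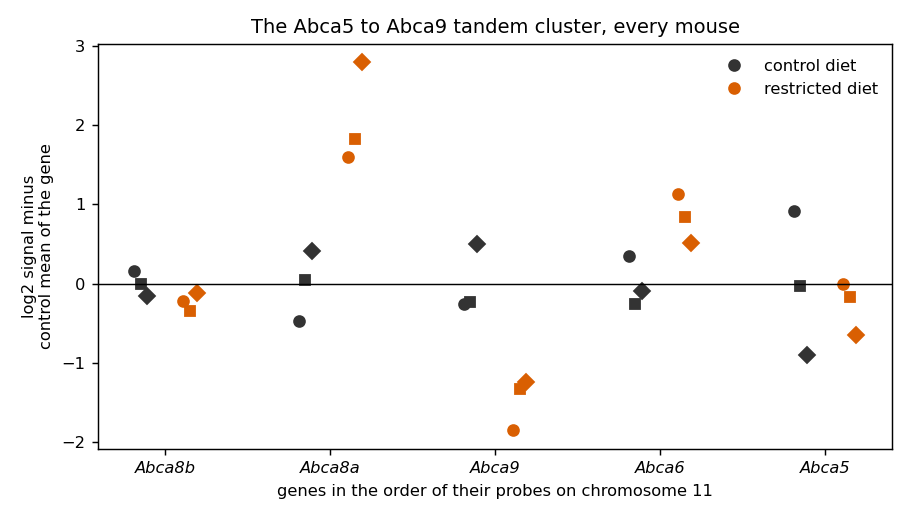
Log2 signal minus the control mean of the gene (vertical axis) in every mouse for the 5 Abca genes on chromosome 11, in the order of their probes (circle mouse 1, square mouse 2, diamond mouse 3). Abca8a and Abca6 lie above the controls and Abca9, between them, below; Abca8b and Abca5 overlap.

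Of the remaining 14 genes, which have no list here, 6 were tested, with 1 higher and 2 lower. Abcc8 and Abcc9 are the sulfonylurea receptors, regulatory subunits of ATP-sensitive potassium channels, and the difference had opposite signs in them. Abcc8 had -2.40, -1.90 and -1.77 in the controls and -1.32, -1.34 and -1.04 on the restricted diet, higher by 0.79 ± 0.22 (1.73-fold, adjusted p = 0.0367 by limma). A second Abcc8 probe shares 47 bases with the first and was above background on 1 of 6 arrays. Abcc9 had 1.89, 1.78 and 2.16 against 0.93, 0.88 and 1.52, lower by 1.78-fold (-0.83 ± 0.23, adjusted p = 0.0363 by limma). Leaving out any 1 mouse ended the call of Abcc8, apart from control mouse 3 (adjusted p from 0.0705 to 0.107 by limma), and that of Abcc9, apart from restricted mouse 3 (0.0725 to 0.124).

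Abcg3, a member of the Abcg subfamily, had -4.76, -4.20 and -3.19 in the controls and was not well above background on any restricted array, so only a bound is given. On the processed signal this bound was 1.84-fold lower on the restricted diet. The bound did not hold with normexp, where the difference was -0.12 (adjusted p = 0.699 by limma). The test of Abcg3 is not read, because the filter kept the gene for its level in the controls. The bound uses the same control levels. Abcc10, Abca17 and Abcg4 did not pass, with differences of 0.79, -0.31 and -0.53. The head-to-head genes Abca17 and Abca3 have starts 964 bases apart, and Abca3 alone was called.

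The other 8 genes had no probe that passed the filter: Abca4, Abca12, Abca13, Abca14, Abca15, Abca16, Abcb5 and Abcc12. The probes of 7 of them were above background on no array, and Abcc12 was above it on 3 of 6. They include Abca4 of the retina and Abca12 of the skin. For these genes a difference between the diets could not be measured by these probes.

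Genes that work beside the ABC transporters were counted from 5 lists. Over all features 14.6% were called higher and 12.8% lower, and no list was tested against these shares. Of 12 tested hepatocyte carriers 5 were higher and 1 lower. Atp7b, counted among the 5, was above background on 4 of 6 arrays, so its call rests in part on signals at background. It passed the filter through the restricted mice alone, which favours a higher value. The organic anion uptake carrier Slco1a1 was higher by 3.02 ± 0.59 (adjusted p = 0.0103 by limma) and the extrusion carrier Slc47a1 by 1.91 ± 0.40 (adjusted p = 0.0133 by limma). Slco1b2 was saturated on all 3 restricted arrays and was at least 1.91-fold higher (adjusted p = 0.0135 by limma). The organic anion transporter Slc22a7 was lower, with a difference of -2.44 ± 0.25 (adjusted p = 0.000883 by limma).

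Of 15 regulators of transporter genes 2 were higher and 1 lower, neither share above that of all features (14.6% and 12.8%). Nr1h4, the bile acid receptor that acts on Abcb11, Abcc2 and Abcb4, had 2.71, 2.51 and 4.08 in the controls and 4.69, 4.53 and 4.89 on the restricted diet, a difference of 1.60 ± 0.41 (adjusted p = 0.0271 by limma). Ppara, the fatty acid receptor, was higher by 1.66 ± 0.28 (adjusted p = 0.00558 by limma), and Srebf2, the activator of sterol synthesis genes, had a difference of -0.93 ± 0.23 (adjusted p = 0.0252 by limma). Nr1h3, the oxysterol receptor known to act on Abcg5, Abcg8, Abca1 and Abcg1, had 0.62 ± 0.26 and did not pass (adjusted p = 0.118 by limma). Of its known target genes among the members, Abcg5 and Abcg8 were thus higher, Abcg1 was lower and Abca1 did not pass.

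Of 11 tested partners in sterol efflux 3 were higher and 0 lower: Pltp by 1.96 ± 0.27 (adjusted p = 0.00268 by limma), Lpcat3 by 0.87 and Npc1 by 0.87. Of 10 tested genes of the canalicular membrane and its scaffold 3 were higher and 2 lower. The ERM proteins, which tie membrane proteins to actin, were among both. Rdx, the member that hepatocytes use at the canaliculus, was higher by 1.05 ± 0.22 (adjusted p = 0.0124 by limma), as was its partner Slc9a3r1 by 0.86 ± 0.18 (adjusted p = 0.0124 by limma). Ezr and Msn, the ERM members of other cell types of the liver, had differences of -3.36 ± 0.27 and -2.48 ± 0.17 (adjusted p = 0.000443 and 0.000334 by limma). Of the 3 ABC genes that carry other names, the antigen peptide transporter subunit Tap2 was lower (-0.73 ± 0.19, adjusted p = 0.0306 by limma), and Tap1 (-0.60) and Cftr (0.29) did not pass.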

How the data were processed

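RNA of 6 livers was hybridised to 1-colour Agilent arrays of design 026655. The deposited files hold the intensity of each spot, the processed signal, made per the file headers with Agilent Feature Extraction 10.7.3.1 (9.3.2.1 per the submitters' processing notes). The authors' deposited value table holds the same intensity on the linear scale: it equals the mean processed signal within 0.1% for 98.96% of the values of ABC probes.

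From the 43020 spots that are not controls, those marked as outliers were dropped (127 to 251 per array). The log2 signals were averaged over the spots of each probe, less the 75th percentile of the array. Kept were 24234 probes that stood well above background in every mouse measured of at least 1 diet, and the brightest per gene was used (19616 features), so 47 of the 64 ABC probes passed and none was saturated. Symbols followed the RefSeq accession where it matched. R 4.3.3 and limma 3.58.1 (lmFit and eBayes) compared the diets over all features. The script was tested on simulated data.

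The ABC genes, roles, gene lists and markers were chosen with earlier results of these data known. Values in every mouse are given for each ABC gene that passed and for the canalicular, basolateral and macrophage roles, and Abcb10 was added after its values were seen; other members are given by their differences, and 1 is not reported here; from each list of other genes, up to 4 that passed with the smallest p, and Nr1h3 was likewise named after its values were seen. Where a gene was not above background on any array of a diet, the bound sets the brighter mean against a floor taken on each array, namely its weakest signal that still counts as well above background or the signal of the probe itself if greater; a saturated group gives its measured ratio. Probe coordinates are those of the files (mm9), without gene models, so exon or UTR positions were not used here. Promoters are RefSeq's. Alternatives covered scaling, background correction, filter, probe choice, moderation, array weights, slide, pairing and left-out mice.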

Additional observations from a re-analysis of the deposited data

How the results depend on the processing

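Over 18 alternatives the differences of the 25 ABC genes given in every mouse by rule gave 449 values, of which 372 kept their direction and side of the threshold, 67 lost and 3 gained a call, and 7 changed sign. Of the 20 called genes, 5 (Abca7, Abca9, Abcc1, Abcg1 and Abcg8) were called under all of them. The sign changed for genes without a call only: Abcb1a had -0.13 with array weights, -0.64 with the slide as a block and on slide 1 alone, and -0.10 and -0.26 without control mouse 3 and restricted mouse 2 (range with 1 mouse left out -0.26 to 0.54), and Abcb1b had 0.012 with normexp and 0.016 without restricted mouse 1 (range -0.55 to 0.016). Against 13 ABC genes called higher, there were 2 with the slide as a block, 1 on slide 1 alone, 6 at an adjusted p under 0.01 and 6 at a difference of at least 2-fold; leaving out 1 mouse gave 8 (without control mouse 2) to 16. Against 7 called lower, there were 4 on slide 1 alone and 4 at an adjusted p under 0.01; leaving out 1 mouse gave 5 to 7. The slide block compares restricted mouse 1, the only one of its diet on slide 1, with the controls, takes it to vary like the other mice, and called 15.4% of all features. Quantile normalization gave 9 higher, median scaling 16 and array weights 19. The median of all features was then 0.07, 0.21 and 0.14, and 14.2%, 18.7% and 26.8% of all features were called higher. Leaving out 1 mouse called 7.98% to 16.7% of all features higher and 8.97% to 13% lower. No such share was counted at an adjusted p under 0.01 or for differences of at least 2-fold. The fit with a replicate block (mouse number as pairs) gave 16 higher and 7 lower, with 18.6% and 15.2% of all features. The deviations of same-numbered mice correlated at 0.38, -0.002 and 0.48, and those of differently numbered mice at -0.50 to 0.12. With 3 mice per diet these correlations cannot show whether the numbers pair the mice. The cause of these changes was not tested, and some fits also had fewer mice. Signal over background limits Abcg3, Abcg4 and the 8 genes without a passing probe.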
